A study of Mus musculus with 12 samples.

Results

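The genes described here are Entpd1, Nt5e, and P2rx7, 3 of the 5 members chosen for the extracellular nucleotide axis of murine T cells. They were taken by symbol from the 2 deposited tables, and all 3 were listed in both, among 11077 genes in the Th17 versus Th0 table and 11056 in the iTreg versus Th0 table. The members were chosen by their differences between Th17 or iTreg and Th0 cells, which were known beforehand. Their differences between groups are therefore described without a test.

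The RNA came from splenic naive CD4+ T cells of C57BL/6 mice aged 8 to 10 weeks. Th0 cells were activated for 3 days with plate-bound anti-CD3 and with anti-CD28, each at 1 μg/ml, and every other culture carried the same activation. Th17 cells also received IL6 (30 ng/ml), TGFβ1 (5 ng/ml), and blocking antibodies to IL4 and IFNγ, each at 10 μg/ml. iTreg cells also received IL2 (10 ng/ml) and TGFβ1, at 10 ng/ml per the labels and at another concentration in the study's methods. Neutralizing antibodies were thus given only to Th17 cells, and IL2 only to iTreg cells, so neither polarized group differed from Th0 by a single agent. Each group had 4 libraries from independent cultures. The labels number 4 experiments, each with 1 library of each group. The libraries are named by their group and by the beginning of their column heading (M22, M29, M42, or M43), since the sources used here do not tie headings to experiment numbers.

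Cells that are stressed or dying release ATP and NAD, and T cells sense and degrade both at their surface. CD39, encoded by Entpd1, removes phosphates from ATP and ADP to give AMP, and CD73, encoded by Nt5e, turns AMP into adenosine. Adenosine restrains T cells through receptors that raise cyclic AMP, and both enzymes are known surface markers of regulatory T cells in mice. P2X7, encoded by P2rx7, is a cation channel opened by high ATP. Its prolonged opening can lead to cell death.

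Each library had 7287000 to 10821000 fragments on listed genes, after rounding. They were recovered from the whole-number steps of the FPKM values, in which fragments are normalized for transcript length and depth. The labels fitted the lineage genes examined. Foxp3, the defining factor of regulatory T cells, was 2.01 to 7.15 FPKM in Th0 and 62.0 to 91.7 FPKM in iTreg libraries. Il17a, the defining cytokine of Th17 cells, was 0 to 0.114 FPKM in Th0 and 7.27 to 65.2 FPKM in Th17 libraries. The iTreg libraries also held 26.9 to 99.2 FPKM of Il17f, another Th17 cytokine, against at most 0.181 FPKM in Th0. The Th17 library headed M43 stood apart with 42.5 FPKM of Foxp3, where the other 3 Th17 libraries had 0.499 to 4.50 FPKM. All 6 T cell markers examined were listed. Their summed levels were 989 to 1968 FPKM in Th0, 839 to 1478 FPKM in Th17, and 923 to 1238 FPKM in iTreg libraries. Single markers differed within these sums. Mean Cd4 was 208 FPKM in Th0 and 68.1 FPKM in Th17 cells, and mean Cd28 133 FPKM in Th0 and 56.1 FPKM in iTreg cells. By group mean, Cd3e, Cd3g, and Cd3d were lower in both polarized groups and Cd4 also in iTreg cells. Lck was higher in both, and Cd28 in Th17 cells. Of 6 myeloid markers, Itgam and Cd68 were listed in the Th17 table and summed to 3.34 to 5.03 FPKM in Th0 and 5.58 to 16.5 FPKM in Th17 libraries. The iTreg table listed Cd68, at 3.19 to 4.85 FPKM in Th0 and 2.61 to 7.19 FPKM in iTreg libraries. A single gene of 6 was listed for B cells (Cd79a, at most 3.84 FPKM) and for CD8 T and NK cells (Cd8b1, at most 6.60 FPKM), and 0 of 4 erythroid genes. The part of these markers in the differences below was not tested.

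Nt5e was the most abundant member in every library. In Th0 cells Nt5e was 13.6, 23.4, 18.1, and 24.4 FPKM in the libraries headed M22, M29, M42, and M43, which is the order used for all values below. In Th17 cells it was 222, 125, 113, and 175 FPKM. Every Th17 library was above every Th0 library. The means were 19.9 ± 5.00 FPKM in Th0 and 159 ± 49.9 FPKM in Th17 cells (SD, n = 4), a ratio of 8.00. On the log2(FPKM + 1) scale the difference was 2.92 ± 0.29 (SE between groups), with an SE of 0.35 over the 4 differences within heading beginnings, which is called the paired SE below. Among all listed genes, ranked from the highest mean, Nt5e stood at 4051 in Th0 and at 339 in Th17 cells. In bulk RNA, fewer cells of a type and less RNA per cell cannot be told apart.

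Nt5e was also higher in iTreg cells, with 193, 174, 167, and 259 FPKM against 13.5, 23.2, 17.8, and 24.1 FPKM of the same Th0 libraries in that table. The tables had been scaled separately by the authors, and the Th0 values in the iTreg table were 0.988 to 0.991 times those in the Th17 table. No iTreg library overlapped with a Th0 library. The mean was 198 ± 42.4 FPKM (SD, n = 4), 10.1 times that of Th0, and the log2 difference was 3.28 ± 0.23 (SE, paired SE 0.19). The gene stood at rank 289 of 11056 in iTreg cells. The libraries of the polarized groups overlapped with each other, with a range of 113 to 222 FPKM in Th17 and 167 to 259 FPKM in iTreg cells. Nt5e is annotated on chromosome 9 (88327197 to 88372092, plus strand, GRCm38), with no exonic bases shared with other genes.

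Entpd1, whose product acts one step before CD73, was scarce in all groups. The Th0 libraries had 0.0636, 0.425, 0, and 0.0255 FPKM, which came from 2, 14, 0, and 1 fragments. The Th17 libraries had 0.175, 0.247, 0.788, and 2.54 FPKM, from 6, 10, 29, and 96 fragments. Levels in Th17 cells thus spread over 14.5-fold, and the highest value was in the library headed M43, the one with high Foxp3. The groups overlapped, since the Th0 library headed M29 was above the Th17 libraries headed M22 and M29. Within heading beginnings, Entpd1 was higher than in Th0 in 3 of 4 Th17 libraries, and the log2 difference was 0.64 ± 0.38 (SE, n = 4; paired SE 0.44). Without the Th17 library headed M43 it was 0.30.

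In iTreg cells Entpd1 was 0.698, 0.916, 0.264, and 0.426 FPKM, from 32, 38, 10, and 16 fragments. Each iTreg library was above the Th0 library with the same heading beginning, with log2 differences of 0.34 to 0.68 and a mean of 0.48 ± 0.18 (SE, paired SE 0.071). The groups overlapped, as the Th0 library headed M29 was above the iTreg library headed M42. The order of the headings was the same in both groups, from M29 down through M22 and M43 to M42. Entpd1 had over 1 FPKM in 1 library of all, did not pass the filter for low values in either table, and is annotated at chr19:40612366-40741602 on the plus strand.

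The product of CD39 is the substrate of CD73, and transcripts of the 2 enzymes differed widely in abundance. Per unit of transcript length, Nt5e exceeded Entpd1 by 55.0 to 955 times in the 3 Th0 libraries with any Entpd1 fragment. It exceeded Entpd1 by 68.8 to 1269 times in Th17 and by 189 to 630 times in iTreg libraries. These ratios rest on few Entpd1 fragments, with 1 behind the ratio of 955 and 6 behind that of 1269. They were not compared between groups.

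**Figure D1:**
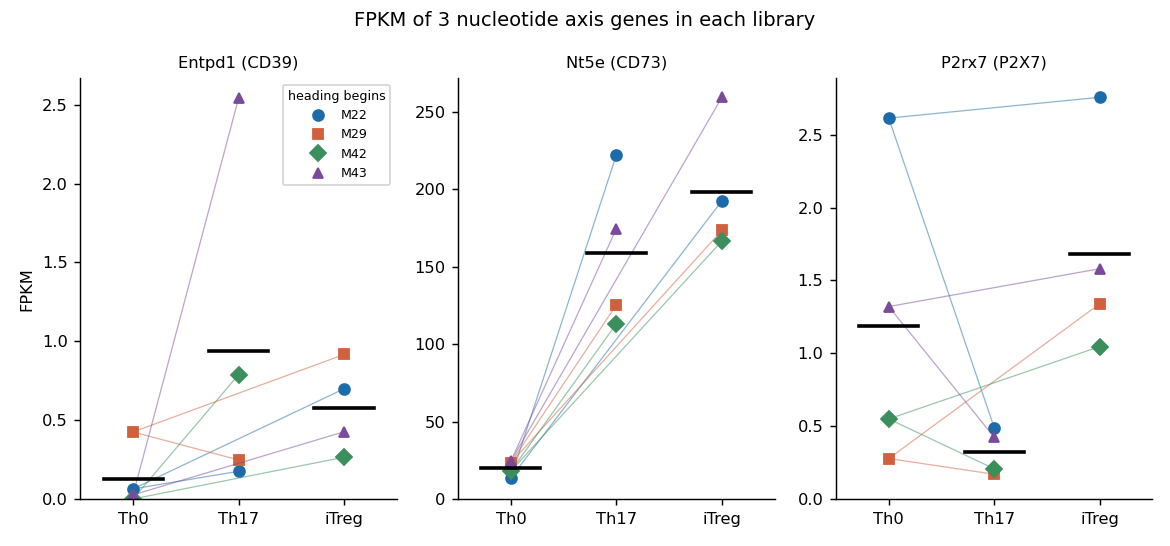
FPKM (y axes, linear and from 0, a scale for each gene) of the 3 genes in each of the 12 libraries, by group, with Th0 values from the Th17 table; points are libraries, thin lines join libraries with the same heading beginning through Th0, and black bars are group means. Nt5e separates Th0 from both polarized groups, and Entpd1 reaches 2.54 FPKM in a single Th17 library.

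P2rx7 was scarce and varied more among Th0 libraries than Nt5e did. The Th0 values were 2.61, 0.277, 0.549, and 1.32 FPKM, from 108, 12, 28, and 68 fragments, a 9.44-fold spread. In Th17 cells P2rx7 was 0.489, 0.169, 0.207, and 0.423 FPKM, from 9 to 22 fragments. The groups overlapped, since the Th0 library headed M29 was below 2 Th17 libraries. Within heading beginnings, however, all 4 Th17 libraries were below their Th0 library, with log2 differences of -1.28 to -0.13. The mean difference was -0.62 ± 0.34 (SE, n = 4; paired SE 0.25), and -0.34 without the Th0 library headed M22. P2rx7 did not pass the filter for low values in the Th17 table.

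In iTreg cells the direction was the opposite. P2rx7 was 2.76, 1.34, 1.05, and 1.58 FPKM in iTreg libraries, from 52 to 166 fragments. Each was above its Th0 library, by 0.07 to 0.88 on the log2 scale, while the groups as a whole overlapped. The mean difference was 0.38 ± 0.38 (SE, n = 4; paired SE 0.18), and 0.16 without the Th0 library headed M29. The order of headings for P2rx7 was the same in Th0 and Th17 cells, from M22 through M43 and M42 to M29, and M22 and M43 were also the highest in iTreg cells. All 4 iTreg libraries (1.05 to 2.76 FPKM) were above all 4 Th17 libraries (0.169 to 0.489 FPKM), in tables that were scaled separately. P2rx7 is annotated at chr5:122643911-122691432 on the plus strand, and the microRNA gene Mir8115 covers 2.0% of its exonic bases.

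**Figure D2:**
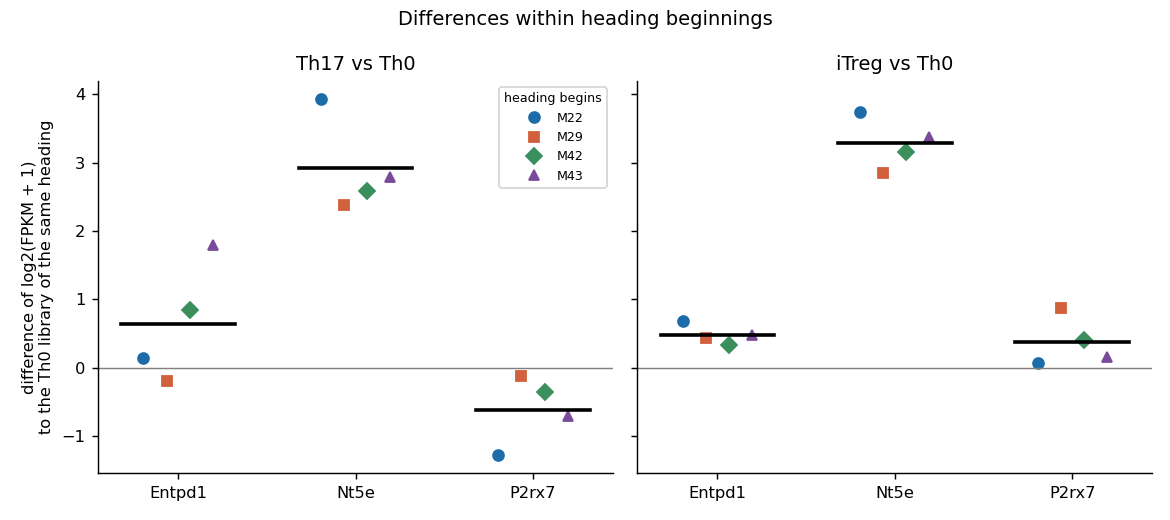
Difference of log2(FPKM + 1) (y axis) between each Th17 (left) or iTreg (right) library and the Th0 library with the same heading beginning, for the 3 genes; points are heading beginnings and black bars are means. P2rx7 lies below 0 for all 4 Th17 libraries and above 0 for all 4 iTreg libraries, and Nt5e above 0 for all libraries of both groups.

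In both tables, 1 of the 3 genes (Nt5e) had no overlap between its groups. Over all listed genes the share without overlap was 24.0% in the Th17 table and 22.8% in the iTreg table. As the members were chosen on these differences, nothing is read from their count.

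The genes whose pattern was most like each member were taken as those with the highest Pearson r of log2(FPKM + 1), using the smaller of the 2 values over the 8 libraries of each table, among 10076 genes tested in both. For Nt5e they were Cerk (0.99), Adam19 (0.99), and Pdlim5 (0.98). Such values were common for Nt5e, as 1.86% of genes had an r over 0.9. For P2rx7 the genes were Slc2a6 (0.94), Ankrd27 (0.90), and Pla2g4f (0.89). For Entpd1 they were Akap13 (0.91), Vps54 (0.89), and Nin (0.86). The libraries share the contrast between groups and the 4 Th0 libraries, and the values are a description.

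The members act within a wider pathway, of which 69 other genes were placed on 11 lists. Of these, 40 were listed and 36 passed the filter (more than 1 FPKM in at least 4 of 8 libraries) in the Th17 table, and 43 and 38 in the iTreg table. In Th17 cells 7 of the 36 (19.4%) were higher and 6 (16.7%) lower than in Th0 (limma, FDR 0.05), against 10.6% and 8.69% of all tested genes. In iTreg cells 5 of the 38 (13.2%) were higher and 5 (13.2%) lower, against 8.36% and 8.21% of all tested genes. The median log2 fold change of the list genes was -0.13 in Th17 and -0.12 in iTreg cells, and that of all tested genes was -0.00071 and 0.011. With the heading beginnings as a block, 10 list genes were higher and 12 lower in Th17 cells, against 19.2% and 18.6% of all tested genes. In iTreg cells 7 were higher and 12 lower with the block, against 20.9% and 20.0% of all tested genes. The lists were chosen with earlier results of these data known. Nothing is therefore read from these counts or from those of single lists below.

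Among other ectonucleotidases, enzymes that degrade nucleotides outside the cell, 2 of 8 genes were listed. Acpp, prostatic acid phosphatase, which can also turn AMP into adenosine, rose in Th17 cells from 0.632 ± 0.453 to 7.69 ± 2.09 FPKM (SD, n = 4; log2 fold change 2.41 ± 0.23 SE, limma adjusted p = 0.000179). Acpp passed the filter in that comparison through its Th17 libraries (4.90 to 9.93 FPKM), since Th0 libraries had 0.359 to 1.30 FPKM. Its Th17 call is therefore given as a description. In iTreg cells Acpp was 1.50 FPKM with a log2 fold change of 0.62 ± 0.24 (limma adjusted p = 0.114, and 0.00218 with the block). Enpp1, a pyrophosphatase that cleaves ATP to AMP, is named although it was chosen after its values were seen, since its libraries overlapped. Not every Th0 library exceeded 1 FPKM (0.335 to 2.88 FPKM), so it passed the filter through its Th17 libraries and its call is a description. It rose by 1.21 ± 0.34 in Th17 cells (limma adjusted p = 0.0390) and lost the call in 6 of 8 fits that left out a library, namely any except those headed M29 in Th0 and M42 in Th17. The list of further CD39-family and ENPP genes had 0 of 4 tested genes called by limma in either comparison. At an unadjusted p under 0.05 the counts were 0 in Th17 and 1 in iTreg cells, and with the block 1 gene, Enpp4, was lower in iTreg cells (log2 fold change -0.60 ± 0.18 SE without the block, limma adjusted p = 0.0505, and 0.00313 with the block). Enpp4 was chosen after its values were seen.

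Cd38, an ectoenzyme that degrades NAD, was listed in the iTreg table alone. It rose from 0.271 ± 0.206 FPKM in Th0 to 1.69 ± 0.550 FPKM in iTreg cells (SD, n = 4; log2 fold change 1.07 ± 0.17 SE, limma adjusted p = 0.00382). Cd38 passed the filter through the iTreg libraries alone (1.07 to 2.36 FPKM), since no Th0 library exceeded 0.530 FPKM. Its call is therefore given as a description. The other genes of NAD enzymes and ADP-ribosyltransferases included 0 further tested genes in either table.

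P2rx4, another ATP-gated channel of T cells, was the 1 gene of the P2X receptor list that passed the filter in each table. It was 16.3 FPKM in Th0, 14.9 FPKM in Th17, and 13.2 FPKM in iTreg cells, with log2 fold changes of -0.09 ± 0.36 and -0.20 ± 0.33 (SE, limma adjusted p = 0.894 and 0.749). P2ry10, a receptor of the P2Y-like family that binds lysophospholipids, fell by 1.11 ± 0.24 in Th17 cells (25.6 to 11.7 FPKM, limma adjusted p = 0.0127). In iTreg cells it was 23.4 FPKM, with a log2 fold change of -0.12 ± 0.18 (limma adjusted p = 0.734).

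On the adenosine side of the pathway, Adora2a and Adk were lower in both polarized groups. Adora2b, the other adenosine receptor listed, was chosen after its values were seen and is outside the checks of named genes below. It was higher in iTreg cells with the block (0.998 to 2.72 FPKM, log2 fold change 0.90 ± 0.35 SE, limma adjusted p = 0.121, and 0.00115 with the block). Its iTreg libraries (1.26 to 3.94 FPKM) carried it over the filter, so this is a description. In Th17 cells it did not pass (1.01 to 0.472 FPKM). Adora2a, encoding the main adenosine receptor of T cells, fell by 0.80 ± 0.21 in Th17 cells (13.4 to 7.29 FPKM, limma adjusted p = 0.0305) and by 0.81 ± 0.18 in iTreg cells (13.2 to 7.05 FPKM, limma adjusted p = 0.0167). The Th17 call was lost in 6 of 8 fits without a library, any except those headed M29 in Th0 and M42 in Th17, and the iTreg call without the Th0 library headed M22 (adjusted p = 0.0501). Adk, adenosine kinase, which clears adenosine inside the cell, fell by 0.98 ± 0.20 in Th17 (46.9 to 22.8 FPKM, limma adjusted p = 0.0102) and by 0.99 ± 0.19 in iTreg cells (46.4 to 22.4 FPKM, adjusted p = 0.00826). It was the single called gene among 8 for adenosine removal and transport in each comparison.

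The remaining genes of that list did not pass without the block. Slc29a1, the main equilibrative nucleoside transporter, had a log2 fold change of -1.20 ± 0.37 in Th17 cells (270 to 110 FPKM, limma adjusted p = 0.0512, and 0.000865 with the block) and of -0.11 ± 0.36 in iTreg cells (adjusted p = 0.874). Ada, adenosine deaminase, had log2 fold changes of -0.20 ± 0.22 and -0.45 ± 0.16 (limma adjusted p = 0.597 and 0.0964), and that in iTreg cells was called with the block (adjusted p = 0.0291). With the block, 1 gene of the list was higher and 5 lower in Th17 cells, and 4 were lower in iTreg cells. Of 5 tested intracellular 5′-nucleotidases, Nt5c2 alone was called, with a rise of 0.47 ± 0.13 in Th17 cells (limma adjusted p = 0.0362) that was lost in 6 of 8 fits without a library, any except those headed M42 in Th0 and M29 in Th17.

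All 4 genes for nucleotide release were tested. Gja1 encodes the gap junction protein connexin 43, whose hemichannels release ATP. It rose from 0.744 to 9.82 FPKM in Th17 cells (log2 fold change 2.64 ± 0.35 SE, limma adjusted p = 0.00101). In iTreg cells it rose from 0.735 to 13.2 FPKM (3.02 ± 0.37, limma adjusted p = 0.000945). Gja1 passed the filter through its Th17 (5.91 to 15.4 FPKM) and iTreg libraries (6.43 to 20.1 FPKM), since Th0 libraries had 0 to 1.59 FPKM. Its calls are therefore given as a description. Slc17a9, the vesicular nucleotide transporter, rose by 1.35 ± 0.27 in iTreg cells (13.9 to 36.5 FPKM, limma adjusted p = 0.00980). In Th17 cells Slc17a9 was 22.8 FPKM against 14.1 FPKM in Th0, with a log2 fold change of 0.68 ± 0.27 (limma adjusted p = 0.115, and 0.0256 with the block). Panx1, a channel through which activated T cells release ATP, fell by 0.55 ± 0.16 in Th17 cells (25.8 to 17.5 FPKM, limma adjusted p = 0.0467), a call lost in 7 of 8 fits without a library, any except that headed M43 in Th17. In iTreg cells the value for Panx1 was -0.52 ± 0.17 (adjusted p = 0.0756, and 0.00374 with the block).

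Downstream of P2X7, 1 of 5 tested genes was called in each comparison. Casp1, the protease of the inflammasome, fell by 2.22 ± 0.35 in Th17 cells (8.36 to 0.836 FPKM, limma adjusted p = 0.00248). In iTreg cells it fell by 2.04 ± 0.35 (8.26 to 1.07 FPKM, limma adjusted p = 0.00499). Casp1 passed the filter through its Th0 libraries (at least 2.67 FPKM), since Th17 libraries had 0.686 to 1.10 FPKM and iTreg libraries 0.736 to 1.32 FPKM. Its calls are therefore given as a description. Adam10 and Adam17, proteases that cleave proteins at the cell surface, had log2 fold changes of -0.58 ± 0.31 and -0.32 ± 0.30 in Th17 cells (limma adjusted p = 0.228 and 0.504, and 0.00645 and 0.0217 with the block). In iTreg cells these were -0.11 ± 0.29 and -0.19 ± 0.33 (adjusted p = 0.842 and 0.756).

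The last list held transcription factors linked to Entpd1 or Nt5e in other studies, of which 4 of 5 were called in each comparison. Of all tested genes, 10.6% were called higher and 8.69% lower in Th17, and 8.36% and 8.21% in iTreg cells. Nothing is read from the count, since the list was chosen with earlier results of these data known. Ahr, the aryl hydrocarbon receptor, rose from 1.36 to 66.7 FPKM in Th17 cells (log2 fold change 4.86 ± 0.19 SE, limma adjusted p = 1.71e-06). In iTreg cells it rose from 1.34 to 9.52 FPKM (2.18 ± 0.19, limma adjusted p = 0.000163). Not every Th0 library exceeded 1 FPKM (0.799 to 1.99 FPKM), so Ahr passed the filter through the polarized libraries and its calls are a description. Stat3, which is activated by IL6, rose by 1.62 ± 0.09 in Th17 (limma adjusted p = 1.12e-05) and by 0.65 ± 0.08 in iTreg cells (adjusted p = 0.00108). Gfi1, a transcriptional repressor, fell by 1.30 ± 0.18 and by 2.13 ± 0.27 (limma adjusted p = 0.00132 and 0.00110). Hif1a, the oxygen-regulated factor, rose by 0.90 ± 0.19 in Th17 (113 to 213 FPKM, limma adjusted p = 0.0113) and fell by 0.55 ± 0.14 in iTreg cells (112 to 75.6 FPKM, adjusted p = 0.0302). The iTreg call for Hif1a was lost in 6 of 8 fits without a library, any except those headed M22 in Th0 and M43 in iTreg. Counting had ignored strand. In the GENCODE annotation, overlapping genes covered 0.756% to 8.11% of the exonic bases of Stat3, Ahr, Gfi1, Adam17, Nt5c2, Slc29a1, and Hif1a. They covered none of those of the other list genes named. The sources used here do not give the gene models that were counted, so overlaps in those may differ. Of the 8 list genes called in both tables, which share their Th0 libraries, Hif1a was the 1 with opposite directions.

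**Figure D3:**
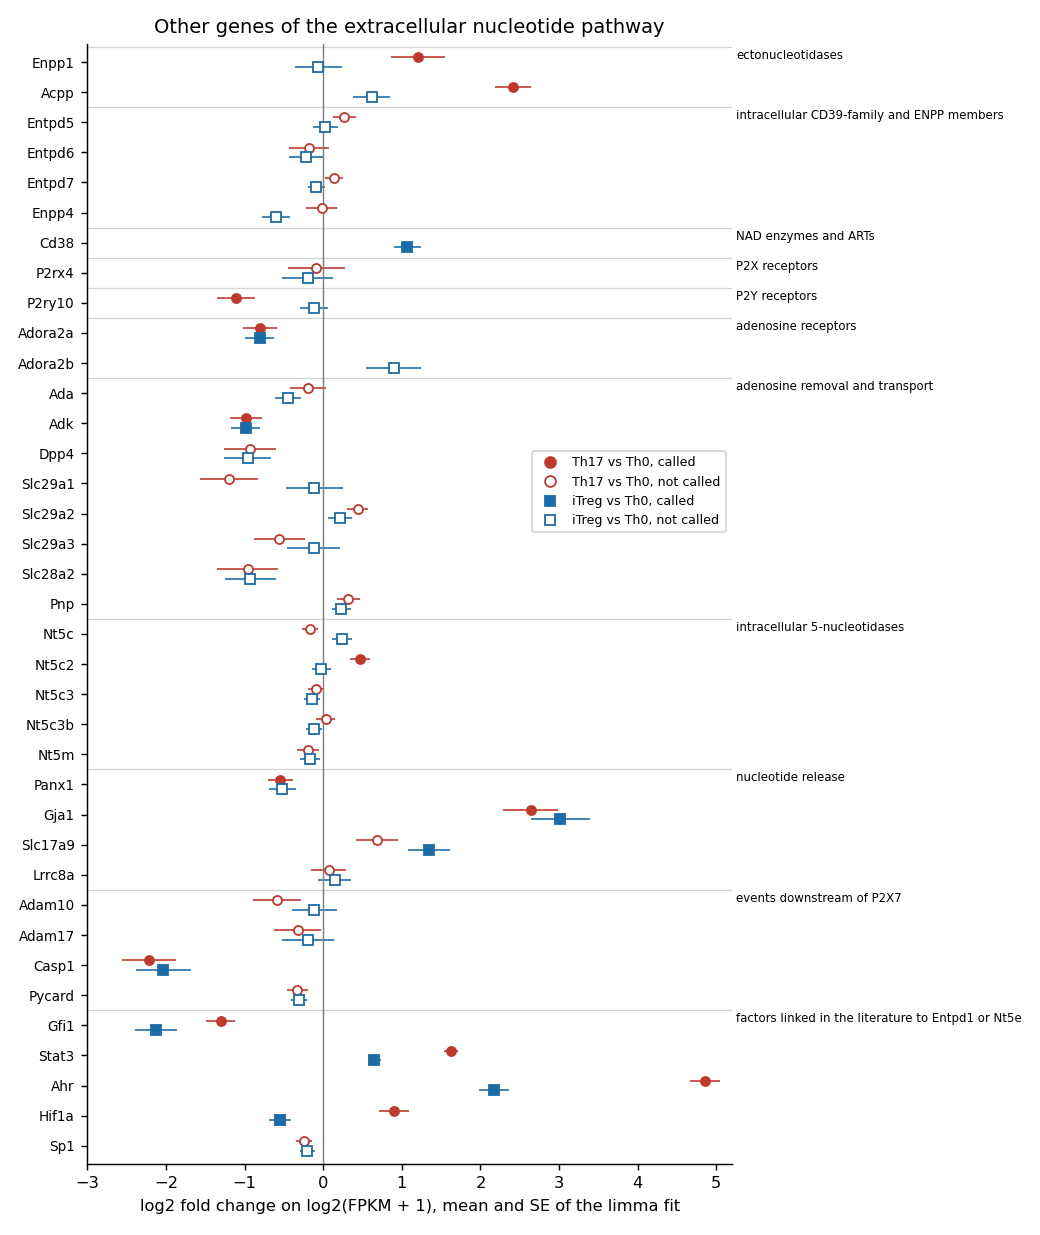
Log2 fold change (x axis, on log2(FPKM + 1), bars are SE of the limma fit, n = 4 per group) of tested genes of the wider nucleotide pathway, in Th17 (circles) and iTreg (squares) against Th0 cells; filled points passed an FDR of 0.05. Ahr has the largest rise in Th17 and Gja1 in iTreg cells, Casp1 and Gfi1 lie lowest, and Adora2a and Adk are lower in both. Calls of Acpp and Enpp1 (Th17), Cd38 (iTreg), and Ahr, Gja1, and Casp1 (both) are descriptions, since a single group carried each over the filter.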

How the data were processed

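The members and the gene lists were chosen with earlier results of these data known. Per the labels and the study's methods, the authors sequenced paired 100-base reads (HiSeq 2000), mapped them with TopHat2 2.0.14 to mm10, counted exonic reads with HTSeq without strand, dropped genes of low CPM, and used edgeR. The authors deposited a table for each comparison with FPKM per library. The sources used here do not give the calculation of FPKM. The authors' columns of log2 fold change, average abundance, test statistic, p-value, and FDR were not used, and 0 library columns were left without a group.

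Genes were kept if 4 or more of the 8 libraries exceeded 1 FPKM (10269 and 10208 genes) and were tested within each table on log2(FPKM + 1) with limma 3.58.1 (R 4.3.3) and Benjamini-Hochberg adjustment at an FDR of 0.05. A pseudocount of 1 understates changes of low genes. On simulated data, changes of 2-fold in FPKM + 1 were called for 77% of the genes given them in the Th17 table (10269 genes). Changes of 4-fold in FPKM + 1 were called for 98%. In the iTreg table (10208 genes) the shares were 75% and 95%. False calls were 5.41% (Th17) and 5.56% (iTreg). In the simulation, libraries were drawn independently and few genes were changed, unlike the correlated libraries and the many called genes here. These shares therefore do not describe the fit on the real libraries. Recovery of 2-fold changes in FPKM itself was not tested for low genes, and recovery with the block was not tested. Members were described by log2 differences with the SE between groups and the SE over the differences within heading beginnings. Fragments were recovered from FPKM steps, with all genes (100%) on whole steps within a small tolerance. HTSeq does not count reads mapped to several places. In libraries with the same heading beginning, deviations from the group means correlated at 0.450 to 0.784 (Th17) and 0.662 to 0.769 (iTreg). With different beginnings the correlations were -0.590 to 0.434 (Th17) and -0.576 to 0.248 (iTreg). The main fit left out the pairing, since the sources used here do not tie headings to experiments. Given these correlations, a fit with heading beginnings as a block is also given where it changed a call. The headings are not explained by the sources used here.

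List genes were named if called and without overlap (at most 12 per comparison), with 9 named in any case. Some further genes are not reported here. Alternatives were a pseudocount of 0.1, no filter, limma-trend, an FDR of 0.01, median scaling, quantile normalization, the block, and leaving out each library. Coordinates and shares of exonic bases are from GENCODE for GRCm38 (mm10). Python 3.11.15, pandas 2.3.3, and scipy 1.17.1 were used.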

Additional observations from a re-analysis of the deposited data

Results flagged for a closer look

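Of 59 groups of 4 libraries examined for the members and named genes, 5 had a library farther from the others than Dixon's 95% critical value allows. Chance flags about 1 in 20 groups, or 2.95 of 59. The Th0 library headed M29 accounted for 4 of them, with 0.425 FPKM of Entpd1 (next 0.0636), 1.30 FPKM of Acpp (next 0.503), 2.69 FPKM of Casp1 (next 9.84), and 56.2 FPKM of Stat3 (next 51.3). The other was the Th0 library headed M42 for Adam17, at 11.3 FPKM where the next was 22.9.

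P2rx7 was lower in all 4 Th17 libraries than in the Th0 library with the same heading beginning (mean log2 difference -0.62 ± 0.34 SE, paired SE 0.25). It was higher in all 4 iTreg libraries (0.38 ± 0.38 SE, paired SE 0.18). P2rx7 was chosen on these differences, so nothing is read from its directions. Both comparisons also share the 4 Th0 libraries. Hif1a was higher in all 4 Th17 libraries (0.90) and lower in all 4 iTreg libraries (-0.55). The difference between the comparisons was not tested for either gene, since the tables were scaled separately.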

How the results depend on the processing

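The members' log2 differences kept their sign under a pseudocount of 0.1, median scaling, quantile normalization, and the block. With a pseudocount of 0.1, Entpd1 was 1.93 (Th17) and 1.80 (iTreg), and P2rx7 was -1.30 (Th17). Quantile normalization gave 0.20 for Entpd1 in iTreg cells. They also kept it in every fit without 1 library.

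With heading beginnings as a replicate block, DE genes rose from 1983 to 3882 (Th17) and from 1691 to 4170 (iTreg), and called list genes from 13 to 22 and from 10 to 19. The block changed no other call among the named genes than those given. At an FDR of 0.01, 995 (Th17) and 778 (iTreg) DE genes were called, and 6 list genes in Th17 cells. Leaving out 1 library gave 1364 to 2237 and 1140 to 1521 DE genes. Fits without 1 library had no block. Calls lost in them were Enpp1, Adora2a, Nt5c2, and Panx1 in Th17 cells, and Adora2a and Hif1a in iTreg cells. With the block on all libraries these calls were kept (limma adjusted p = 0.000769 to 0.0149).

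Uncalled genes whose sign depended on a single library ranged, over the fits without 1 library, in Th17 cells from -0.393 to 0.00354 (Ada; positive without M29 in Th17) and from -0.349 to 0.135 (P2rx4; positive without M22 or M29 in Th0 or M42 in Th17). In iTreg cells they ranged from -0.428 to 0.136 (Slc29a1; positive without M22 or M29 in Th0 or M42 in iTreg), from -0.457 to 0.0274 (P2rx4; without M29 in Th0), from -0.294 to 0.128 (Adam10; without M43 in Th0 or M42 in iTreg), from -0.449 to 0.0921 (Adam17; without M42 in iTreg), from -0.233 to 0.0104 (P2ry10; without M42 in iTreg), and from -0.0819 to 0.0447 (Nt5c2; without M42 in Th0 or M29 in iTreg). Calls gained without 1 library were Slc29a1 in Th17 (M42 in Th0), and Acpp (M29 in Th0), Ada (M42 in iTreg), Panx1 (M43 in iTreg), and Enpp4 (M42 in Th0) in iTreg cells. Slc29a1 was also called with limma-trend and median scaling, and Enpp4 without the filter and with median scaling or quantile normalization. The Th17 calls of Nt5c2 under median scaling and quantile normalization, and of Enpp1 and Panx1 with a pseudocount of 0.1, were lost (adjusted p 0.0708, 0.0635, 0.0659, and 0.0523). The cause was not tested. Depth limits Entpd1 and P2rx7, which rest on few fragments.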
